A study of Mus musculus with 9 samples.

Results

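The cyclin-dependent kinase (CDK) inhibitor genes, the p53 gene with its classical target genes, and the gene of casein kinase 1 alpha (CKIα) were followed in mouse gut organoids. The 10 genes were taken by symbol from a table of 23955 rows, and all 10 were found: Trp53, Mdm2, Cdkn1a, Ccng1, Trp53inp1, Cdkn1b, Cdkn1c, Cdkn2a, Cdkn2b and Csnk1a1. Organoids are small epithelial cultures that grow from gut stem cells in gel, without the surrounding stroma. RNA-seq was done on 9 samples in 3 groups of 3. MIN organoids came from Apc-mutated epithelium of normal appearance next to the tumors of APCmin/+ mice, Adenoma organoids came from the adenomatous polyps of such mice, and Sulindac organoids were Adenoma organoids given the NSAID sulindac, a cyclooxygenase inhibitor. All 3 groups therefore carry the Apc min allele, and all grew with Noggin, EGF, bFGF, R-spondin1 and B27. Neither a wild-type sample nor a treated MIN sample was analysed here, and the dose and duration of sulindac and the age of the mice are not given in the sources used here. The study asked how parainflammation, a low-grade inflammatory state known from CKIα-deficient gut, relates to tumors and to NSAID treatment. The genes described here bear on cell cycle arrest and senescence.

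p53 is a transcription factor that is held low by the ubiquitin ligase Mdm2 and is stabilized by DNA damage or oncogenic stress. It then switches on genes for cell cycle arrest, repair and cell death, and also Mdm2 itself, so that the pair forms a feedback loop in which most control acts on the p53 protein and not on its RNA. CDK inhibitors of the Cip/Kip family (p21, p27, p57) block many cyclin-CDK complexes, and those of the Ink4 family (p15, p16) block CDK4 and CDK6. CKIα primes beta-catenin for degradation in the complex that holds Apc, and its loss in gut epithelium is known to activate both Wnt signaling and p53.

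Each sample held between 30881206 and 48412477 counted reads, so that 3 counts, taken as the detection floor, correspond to 0.0647 to 0.0989 CPM (reads relative to library size, scaled by TMM factors over the 9 samples). Epithelial markers were high in every sample, with a summed level over 7 genes of 5503 to 7918 CPM in MIN, 3219 to 4246 in Adenoma and 4514 to 5323 in Sulindac. They too moved with the groups, 5 of the 7 being lower in Adenoma and 5 in Sulindac than in MIN, with log2 fold changes of -7.86 and -7.04 for Krt20. Krt18 went the other way, higher in Sulindac than in MIN (1.16), at 1194 to 1290 CPM against 439 to 711. The groups differed in stem cell and differentiation markers. The 6 stem cell markers summed to 1322 to 2582 CPM in MIN, 1144 to 1644 in Adenoma and 848 to 1109 in Sulindac. Of them 3 were higher in Adenoma than in MIN (Axin2, Sox9 and Ascl2) and 2 lower, with a log2 fold change of -13.2 for Olfm4. The 8 enterocyte markers summed to 3840 to 7281 CPM in MIN, 6.91 to 8.52 in Adenoma and 8.11 to 10.2 in Sulindac, and the 8 secretory cell markers to 8136 to 10376, 96.4 to 229 and 45.8 to 94.2 CPM. All 8 enterocyte markers and 7 of the 8 secretory markers were lower in Adenoma than in MIN, so every difference from MIN below moved together with this change, and its part in them was not tested. In such bulk RNA, fewer cells of a type and less RNA per cell cannot be told apart. The 7 leukocyte markers summed to at most 16.6 CPM in any sample, and 3 to 5 of them were at or below 3 counts throughout each group. Cd68 alone gave 7.95 to 16.2 CPM in Adenoma, against 1.14 to 2.24 in MIN and 2.85 to 3.86 in Sulindac. It was higher in Adenoma than in MIN (log2 fold change 2.79), where Itgam and Lyz2 were lower. With sulindac Cd68 was lower (-1.78), a call lost without Sulindac 2 or Sulindac 3. Ptprc had 4 to 8 reads in Adenoma, at most 1 in MIN and 0 in Sulindac. The 9 mesenchymal and endothelial markers summed to 7.65 to 9.09 CPM in MIN, 107 to 263 in Adenoma and 3.66 to 9.41 in Sulindac, of which Vim alone gave 105 to 261 CPM in Adenoma. The third replicates of MIN and Adenoma stood apart from their groups. The chi-square per gene was 69.0 to 77.0 between MIN 3 and the other MIN samples against 19.4 between those, and 73.9 to 81.7 against 20.7 for Adenoma 3, while the Sulindac samples differed by 18.6 to 33.4.

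p53 binds DNA through a 10-base motif, the p53 decamer, usually 2 copies side by side. RefSeq promoter windows (250 bases before to 50 after a start, build GRCm38.p6) were available for 7 of the 10 genes. Of those, 4 (57.1%), Trp53, Mdm2, Cdkn1a and Ccng1, had at least 1 decamer, against 9.55% of all 27025 genes with a window (8.36% of all 32851 windows). Only Cdkn1a had a pair of decamers no more than 13 bases apart, which 0.074% of all genes with a window hold. Its pair was at the upstream of its 2 annotated starts. The windows around these matches are shown because they carry the p53 motif, with the decamers in capitals and the rest in lower case. Only exact matches to the motif are in capitals. In Cdkn1a the 10 bases directly after the second decamer, tgacatgttc, miss the motif at their first base only and so stand in lower case. Each is written 5′ to 3′ on the strand of its gene. The motif reads the same on both strands, so that 1 search covers both.
Cdkn1a (chr17:29090877-29090966, plus strand, bases -102 to -13 from the upstream start): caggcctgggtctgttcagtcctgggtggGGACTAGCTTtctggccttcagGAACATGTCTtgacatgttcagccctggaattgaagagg
Trp53 (chr11:69580244-69580333, plus strand, bases -115 to -26): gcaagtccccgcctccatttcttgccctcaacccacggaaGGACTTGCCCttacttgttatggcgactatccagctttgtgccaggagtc
Mdm2 (chr10:117710895-117710984, minus strand, bases -226 to -137): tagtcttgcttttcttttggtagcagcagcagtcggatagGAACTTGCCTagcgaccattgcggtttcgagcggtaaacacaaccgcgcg
Ccng1 (chr11:40755422-40755511, minus strand, bases -225 to -136): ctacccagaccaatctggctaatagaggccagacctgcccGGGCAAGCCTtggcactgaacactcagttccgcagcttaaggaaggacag
Cdkn1b, Cdkn2b and both Cdkn2a starts had no match in these windows. The matches are descriptions of sequence, and no binding was measured. Among the 35 other p53 target genes fixed as a list, 27 had a window and 7 of those held a decamer (25.9%), against 9.55% of the 27025 genes with a window.

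**Figure D1:**
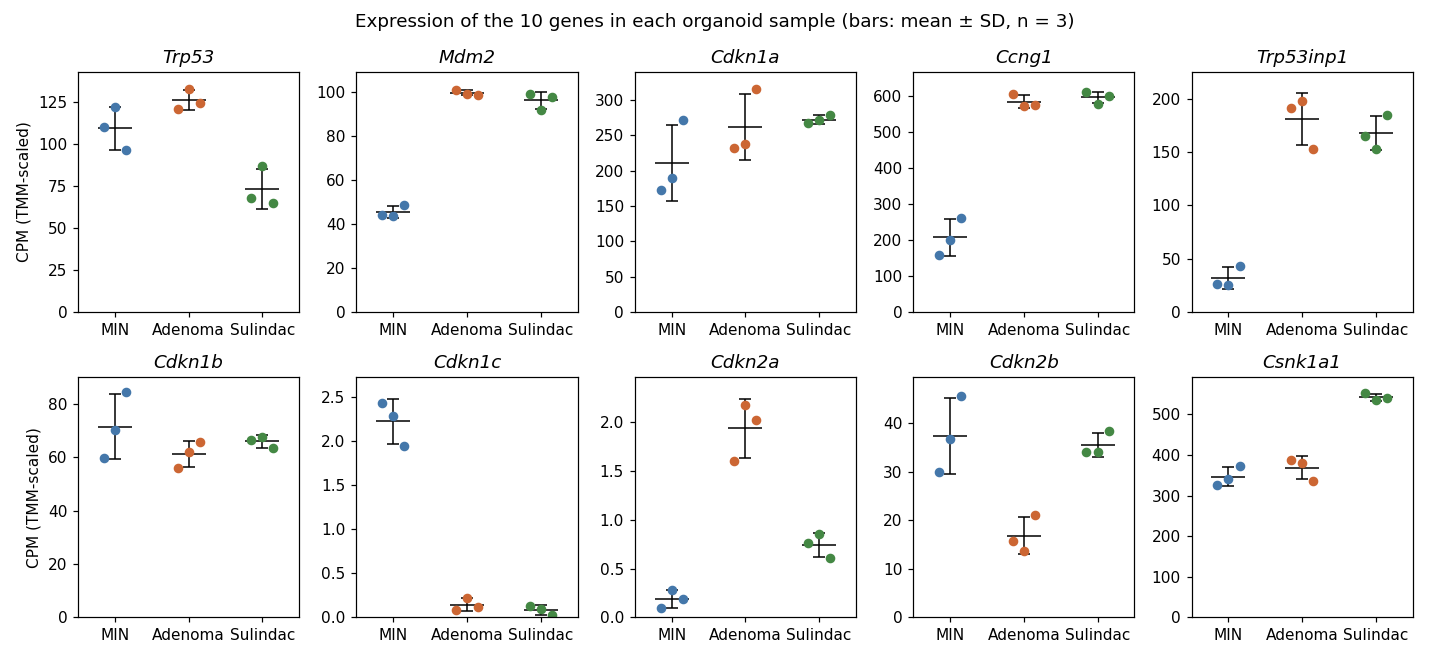
CPM (TMM-scaled, linear axes from 0) of the 10 genes in each of the 9 organoid samples. Points are samples in replicate order, bars the mean ± SD of 3. Mdm2, Ccng1, Trp53inp1 and Cdkn2a sit higher in every Adenoma sample than in every MIN sample, Cdkn1c and Cdkn2b lower, and Csnk1a1 is highest in the 3 Sulindac samples.

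Adenoma organoids were first compared with MIN organoids, the question being which arrest and p53 genes differ between tumor epithelium and its Apc-mutated neighbor. Of the 10 genes, 4 were higher in Adenoma (Mdm2, Ccng1, Trp53inp1, Cdkn2a), 2 were lower (Cdkn1c, Cdkn2b) and 4 did not pass the test (Trp53, Cdkn1a, Cdkn1b, Csnk1a1). A gene was called at a Benjamini-Hochberg adjusted p under a false discovery rate of 1% in edgeR's quasi-likelihood test over all 13744 genes tested, of which 18.5% were higher and 20.1% lower. The Adenoma and MIN samples did not overlap for the 6 called genes, as was true of 100% of the 5314 genes called and of 62.6% of all genes tested, so that lack of overlap adds nothing to these calls. The comparison thus touched a large part of the transcriptome, and the 10 genes are few. Counts from the lists below stand against the shares over all genes of their comparison.

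Trp53 itself, which encodes p53, was at 110, 122 and 96.4 CPM in MIN and at 121, 133 and 125 CPM in Adenoma. The groups overlapped, and the log2 fold change of 0.21 had a 95% interval from -0.05 to 0.46. Mdm2, the ligase that degrades p53, was at 44.3, 43.9 and 48.7 CPM in MIN and at 101, 99.3 and 99.0 CPM in Adenoma. Its samples were tightly grouped and far apart between the groups, with 2.19-fold more in Adenoma (log2 fold change 1.13 ± 0.10 (SE), adjusted p = 2.2e-05 by edgeR's quasi-likelihood test). Within each sample the ratio of Mdm2 to Trp53 reads was 0.401, 0.360 and 0.506 in MIN and 0.835, 0.748 and 0.793 in Adenoma.

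Of the 3 other p53 targets, Trp53inp1 and Ccng1 passed the test and Cdkn1a did not. Trp53inp1, a p53-induced protein that promotes p53 phosphorylation and autophagy, was at 26.0, 25.3 and 43.4 CPM in MIN and at 191, 198 and 153 CPM in Adenoma. That is 5.73-fold more (log2 fold change 2.52 ± 0.23, adjusted p = 3.0e-05 by edgeR's quasi-likelihood test), and even the lowest Adenoma sample was well above the highest MIN sample. Ccng1, which encodes cyclin G1, a p53-induced partner of protein phosphatase 2A, was at 159, 202 and 262 CPM in MIN and at 605, 573 and 574 CPM in Adenoma. It was 2.81-fold higher (log2 fold change 1.49 ± 0.18, adjusted p = 0.00017), again with no overlap. Cdkn1a, which encodes p21 and is the best known arrest gene downstream of p53, was at 172, 189 and 271 CPM in MIN and at 232, 237 and 315 CPM in Adenoma. Here the groups overlapped, since MIN 3 lay above 2 of the Adenoma samples, while Adenoma was higher than MIN in each of the 3 pairs of the same number. Whether the same number marks a true pair is not given in the sources used here. With these pairs as a block the change was 0.33 with an adjusted p of 0.036 (edgeR's quasi-likelihood test), still not called. Without the block its log2 fold change of 0.31 (95% interval -0.14 to 0.76) missed the threshold with an adjusted p of 0.22 in edgeR's quasi-likelihood test, and the upper end of the interval lies below the fitted changes of Mdm2, Ccng1 and Trp53inp1. Without the third replicates of both groups, the samples that stood apart, Cdkn1a did pass (0.39, adjusted p = 0.0046), and Mdm2, Ccng1 and Trp53inp1 gave 1.19, 1.72 and 2.93.

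**Figure D2:**
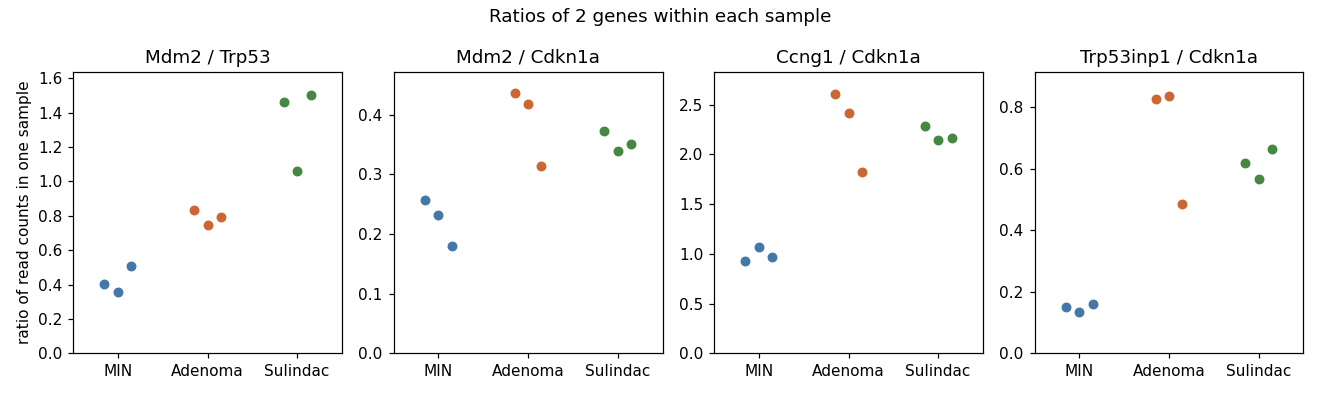
Ratios of the read counts of 2 genes within each sample (linear axes from 0, 1 point per sample). Ccng1 to Cdkn1a is 0.925 to 1.07 in MIN and 1.82 or more in each Adenoma and Sulindac sample, and Mdm2 to Trp53 rises from MIN to Adenoma to Sulindac without overlap.

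Ratios of reads within a sample do not depend on scaling between samples. Ccng1 to Cdkn1a was 0.925, 1.07 and 0.967 in MIN against 2.61, 2.42 and 1.82 in Adenoma. Trp53inp1 to Cdkn1a was 0.134 to 0.160 in MIN and 0.486 to 0.836 in Adenoma, and Mdm2 to Cdkn1a 0.180 to 0.258 and 0.314 to 0.437. Adenoma 3, the sample with the most Cdkn1a, gave the lowest ratio of its group in all 3 pairs, yet it stayed above every MIN sample.

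The wider set of p53 targets was described from the list of 35 genes, of which 34 were tested (Dram1 was near the floor in every group). Of these, 18 were higher in Adenoma and 3 were lower, and their median log2 fold change was 0.96 against -0.01 over all genes tested. Eda2r, a receptor of the TNF receptor family, showed the most change, from 3.70 to 6.87 CPM in MIN to 70.6 to 97.5 CPM in Adenoma (log2 fold change 4.17). Ptp4a3, a phosphatase, went from 18.8 to 30.2 CPM in MIN to 155 to 203 CPM in Adenoma (2.93). Phlda3, an inhibitor of Akt, rose by 2.57 and Plk2, a polo-like kinase, by 2.54 on the log2 scale. The genes that fell were Gadd45a, a stress and repair factor (-1.74, or -1.04 without MIN 3, which had 77.4 CPM), Sfn, the arrest protein 14-3-3 sigma (-1.56), and Sesn1, an inhibitor of mTORC1, at 17.3 to 18.1 CPM against 34.1 to 36.7 CPM in MIN. The count of higher genes was 16 to 20 when any 1 sample was left out. Gadd45a lost its call without any 1 Adenoma sample and Sfn without Adenoma 1 (adjusted p = 0.011 to 0.038 by edgeR's quasi-likelihood test).

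**Figure D3:**
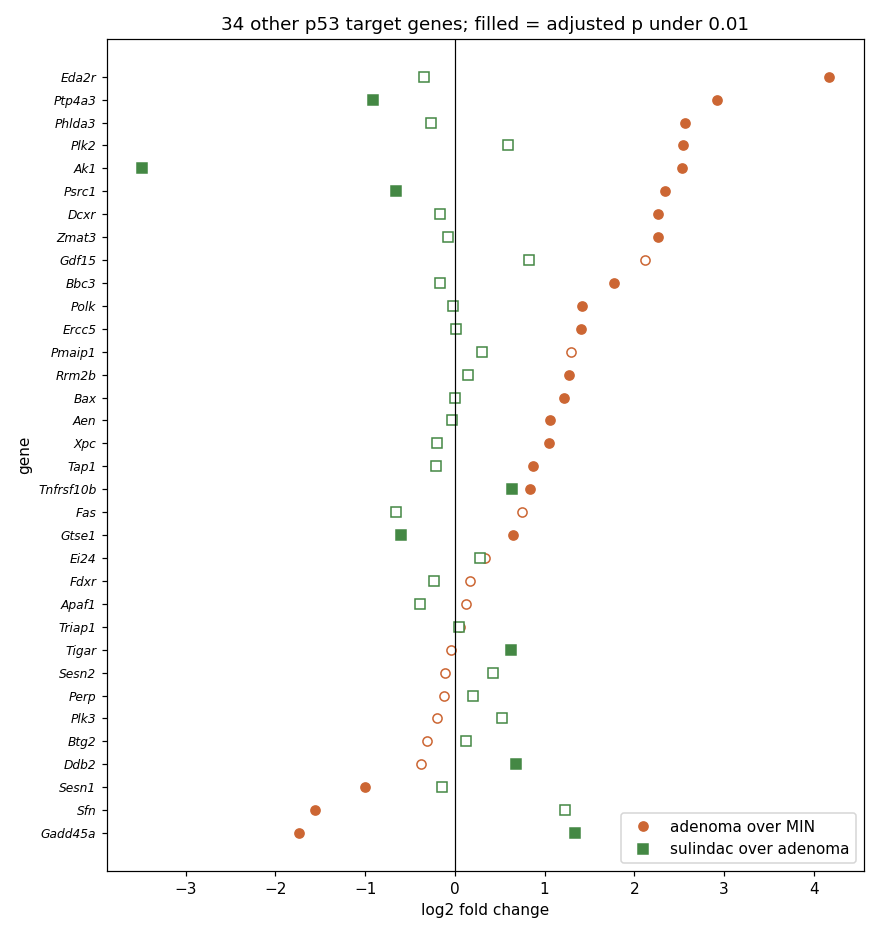
Log2 fold change of the 34 other p53 target genes tested, sorted by Adenoma over MIN (circles), with Sulindac over Adenoma (squares). Filled symbols passed the test. Of the circles 18 are filled on the right and 3 on the left, while the squares gather around 0 with 4 filled on each side.

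Genes that act on p53 were read from a further list. Of 19 listed, 17 were tested (Trp63 and Trp73, the p53 relatives, were near or below the floor). In edgeR's quasi-likelihood test 2 were higher and none was lower (3 higher and 4 lower at an unadjusted p under 0.05, 2 and 2 by DESeq2), that is, 11.8% higher against 18.5% of all genes: Trp53bp1, a repair protein that binds p53 (log2 fold change 0.82), and Kat5, an acetyltransferase (0.53), whose call was lost without any 1 MIN sample or Adenoma 1. The list's median was -0.12. In this list Mdm4, the inhibitory relative of Mdm2, had a log2 fold change of -0.31 with an adjusted p of 0.33 in edgeR's quasi-likelihood test.

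Among the Cip/Kip inhibitors, Cdkn1b (p27), which holds cells in quiescence, was at 59.8, 70.5 and 84.4 CPM in MIN and at 56.2, 62.1 and 65.7 CPM in Adenoma. These ranges overlapped, and the interval of its log2 fold change ran from -0.55 to 0.10. Skp2, the ligase subunit that recognizes p27 for degradation, was lower in Adenoma (-1.10), and Foxo4, of the FoxO factors that can induce Cdkn1b, was higher (0.74), the only called genes of 7 on p27 turnover and FoxO. Cdkn1c (p57), an imprinted gene that restrains growth, was at 2.44, 2.29 and 1.95 CPM in MIN and at 0.0842, 0.224 and 0.116 CPM in Adenoma. This was 100, 106 and 72 reads against 3, 8 and 4, so that Adenoma lay close to the floor. The ratio of summed counts, scaled by library size with TMM factors, was 15.8-fold lower, with a 95% counting interval of 9.40 to 28.6 that leaves out the spread between samples. The fit gave a log2 fold change of -3.94 ± 0.38 and an adjusted p of 4.4e-05 (edgeR's quasi-likelihood test). In the GENCODE M21 annotation 30.7% of the exon bases of Cdkn1c overlap an antisense gene, Gm44732. Whether the counting used strand is not given in the sources used here, so reads from the overlapping part cannot be assigned to 1 of the 2 genes.

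The imprinted region that holds Cdkn1c was read from 7 listed neighbors. Of these, 2 were higher and 2 lower in Adenoma, 28.6% each, against 18.5% and 20.1% of all genes tested. H19, a maternally expressed noncoding RNA, had 4 to 5 reads in each MIN sample and 99 to 663 in Adenoma (log2 fold change 6.65). Igf2, the growth factor gene beside it, had 43 to 70 reads in MIN and 0 to 3 in Adenoma. Kcnq1ot1, the antisense RNA that silences Cdkn1c on the paternal chromosome, was lower (-1.03), and Cd81 was higher (0.89).

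The 2 Ink4 genes are neighbors on chromosome 4 and moved in opposite directions. Cdkn2a, which encodes p16 and, from another promoter, the Mdm2 inhibitor p19Arf, was at 0.0975, 0.280 and 0.189 CPM in MIN and at 1.60, 2.18 and 2.03 CPM in Adenoma. These are 4, 13 and 7 reads against 57, 78 and 70, a low level in both groups but without overlap. The mean was 10.2 times that of MIN (log2 fold change 3.32 ± 0.39, adjusted p = 0.00014 by edgeR's quasi-likelihood test), and the counting interval of the ratio was 6.56 to 16.0. A count per gene does not separate p16 from p19Arf. Cdkn2b (p15), a target of TGF-beta, was at 30.02, 36.7 and 45.6 CPM in MIN and at 15.8, 13.6 and 21.1 CPM in Adenoma. It was 2.22-fold lower (log2 fold change -1.15 ± 0.21, adjusted p = 0.0015), and the highest Adenoma sample stayed below the lowest MIN sample.

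Of the other CDK inhibitors, Cdkn2d (p19Ink4d) was higher in Adenoma (log2 fold change 0.88), while Cdkn2c (p18) and Cdkn3 gave 0.34 and -0.43 with adjusted p of 0.088 and 0.11 in edgeR's quasi-likelihood test. Of 10 genes of Polycomb regulation at the Cdkn2a locus (subunits of the repressive complexes, and Kdm6b, a demethylase that opposes them), 3 were higher and none lower by edgeR's quasi-likelihood test (1 lower at an unadjusted p under 0.05, 0 by DESeq2): Bmi1 (1.08), Cbx2 (0.92) and Rnf2 (0.76). Of 18 cyclins, CDKs and pocket proteins, 1 was higher (5.56%) and 4 lower (22.2%), against 18.5% and 20.1% of all genes tested. Ccnd1 (cyclin D1) was the one that was higher (1.31), and E2f2, an E2F factor, fell by 2.83, Rb1, the retinoblastoma protein, by 1.33 and its relative Rbl1 by 0.83 on the log2 scale. The call of Rbl1 was lost without MIN 1, MIN 2 or Adenoma 1, and that of Birc5, below, without MIN 1, MIN 2 or Adenoma 2. Of 15 proliferation genes, edgeR's quasi-likelihood test called 1, Birc5, which encodes survivin, lower by 0.66 on the log2 scale, with a list median of -0.34. DESeq2 called 3 lower, the replicate block gave 4, and 7 were lower at an unadjusted p under 0.05. The count was 8 without the third replicates of both groups and 0 to 4 with 1 sample left out.

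Csnk1a1, which encodes CKIα, was at 327, 340 and 373 CPM in MIN and at 388, 381 and 335 CPM in Adenoma. The groups overlapped and the log2 fold change of 0.09 had an interval from -0.18 to 0.35. Of the 5 other casein kinase 1 genes, Csnk1e was higher in Adenoma (1.04), with 49.7 to 59.7 CPM in MIN and 100 to 116 CPM in Adenoma. The other members, Csnk1d, Csnk1g1, Csnk1g2 and Csnk1g3, had log2 fold changes from -0.20 to 0.40 and did not pass. Of 9 genes of the beta-catenin destruction complex and its ligases, Axin2, also a Wnt target gene (1.63), and Btrc, the F-box protein that reads the mark set after CKIα (1.57), were higher, and none was lower by edgeR's quasi-likelihood test (1 at an unadjusted p under 0.05, 0 by DESeq2).

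**Figure D4:**
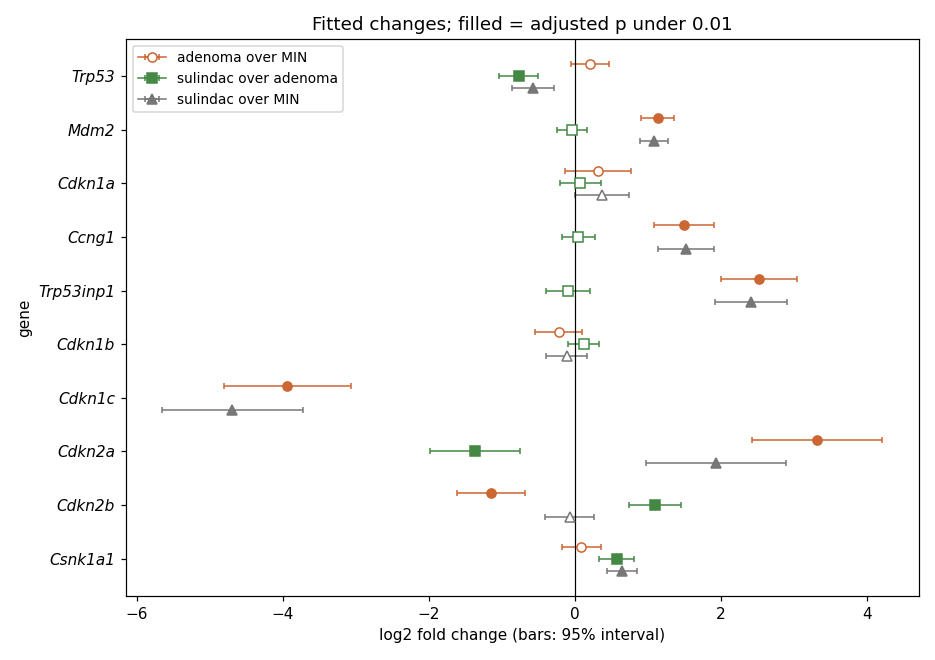
Log2 fold change and 95% interval of the 10 genes in the 3 comparisons (x axis). Filled symbols passed the test. Mdm2, Ccng1 and Trp53inp1 lie right of 0 in both comparisons with MIN and near 0 for Sulindac over Adenoma, in which Cdkn1c was not tested.

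Treatment of Adenoma organoids with sulindac was compared with untreated Adenoma organoids, to see which of these genes move with the drug. Of the 10 genes 9 passed the filter on low counts. Cdkn2b and Csnk1a1 were higher with sulindac, Trp53 and Cdkn2a were lower, and Mdm2, Ccng1, Trp53inp1, Cdkn1a and Cdkn1b did not pass. Over all 12962 genes tested, 8.32% were higher and 9.1% lower. The called genes among the 10 did not overlap between the groups, as was true of 100% of the 2257 genes called and of 48.7% of those tested. Lack of overlap thus adds nothing to these calls. When samples were scaled by library size without TMM factors, the median of all genes moved from -0.01 to -0.18 on the log2 scale and the share of higher genes among the calls from 47.8% to 23.3%. The Adenoma samples are the same as those set against MIN above, so the changes in the 2 comparisons share them.

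Trp53 fell from 121, 133 and 125 CPM in Adenoma to 68.1, 86.9 and 65.2 CPM with sulindac. All 3 treated samples lay below all untreated ones, 1.71-fold lower (log2 fold change -0.77 ± 0.12, adjusted p = 0.0019 by edgeR's quasi-likelihood test). Mdm2 was at 99.5, 92.0 and 97.9 CPM, and the interval of its log2 fold change ran from -0.24 to 0.17. Within samples the ratio of Mdm2 to Trp53 reads was thus 1.46, 1.06 and 1.502 with sulindac, above every Adenoma sample.

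Ccng1 was at 610, 579 and 601 CPM with sulindac against 605, 573 and 574 CPM in Adenoma. These overlapped, and the interval ran from -0.18 to 0.27. Trp53inp1 was at 165, 153 and 185 CPM (interval -0.40 to 0.21) and Cdkn1a at 267, 271 and 278 CPM (-0.21 to 0.36). These intervals bound the changes, and they do not show that the levels were equal. Of the 34 other p53 targets, 4 were higher and 4 lower, with a median of -0.01, the same as over all genes tested. Ak1, an adenylate kinase, fell from 5.20 to 6.87 CPM in Adenoma to 0.291 to 0.857 CPM (log2 fold change -3.49), and Ptp4a3 from 155 to 203 CPM to 85.7 to 99.7 CPM (-0.91). Gadd45a was higher with 25.7 to 40.1 CPM against 12.5 to 13.6 in Adenoma (1.34), and so was Ddb2, a damage sensor (0.68). The count of higher targets depended on the samples, from 1 to 4 when 1 was left out. Of 17 regulators of p53 tested, edgeR's quasi-likelihood test called 1, Trp53bp1, lower by 0.56 on the log2 scale. The calls of Trp53bp1 and Ddb2 were each lost in 5 of the 6 fits that left out a sample, all but that without Adenoma 3, and that of Ptp4a3 without Sulindac 3.

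Cdkn2b rose from 15.8, 13.6 and 21.1 CPM to 34.1, 34.2 and 38.4 CPM. The treated samples lay close together above all untreated ones, 2.13-fold higher (log2 fold change 1.09 ± 0.16, adjusted p = 0.0015 by edgeR's quasi-likelihood test). Cdkn2a fell from 1.60, 2.18 and 2.03 CPM to 0.758, 0.859 and 0.611 CPM, that is, from 57, 78 and 70 reads to 23, 28 and 21. This was 2.58-fold lower (-1.37 ± 0.27, adjusted p = 0.0058), without overlap but at a low level. Cdkn1c was left out by the filter, with 4, 3 and 1 reads with sulindac against 3, 8 and 4, at or near the floor in all 6 samples; its ratio of summed counts was 0.580 with a counting interval of 0.213 to 1.46. Cdkn1b was at 66.7, 67.9 and 63.4 CPM (interval -0.09 to 0.33). None of the 3 other CDK inhibitors, the 10 Polycomb genes or the 7 genes of p27 turnover and FoxO was called by edgeR's quasi-likelihood test. At an unadjusted p under 0.05 these were 1, 4 and 5 genes, and DESeq2 called 1, of p27 turnover and FoxO.

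Csnk1a1 rose from 388, 381 and 335 CPM to 552, 535 and 540 CPM with sulindac. The treated samples differed among themselves by little, and all lay above the untreated ones, 1.49-fold higher (log2 fold change 0.57 ± 0.11, adjusted p = 0.0046 by edgeR's quasi-likelihood test). The 5 other casein kinase 1 genes had log2 fold changes from -0.08 to 0.08, and none was called by edgeR's quasi-likelihood test or DESeq2, with 0 at an unadjusted p under 0.05. Of the 9 destruction complex genes, whose median was 0.22, edgeR called 0, with 5 at an unadjusted p under 0.05 and 3 called by DESeq2. With library size alone the change of Csnk1a1 was 0.40 with an adjusted p of 0.023 (edgeR's quasi-likelihood test).

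These 4 calls depended on the samples used. Csnk1a1 passed in 1 of the 6 fits that left out a sample (without Adenoma 3) and Cdkn2a in 1 (without Adenoma 1), with an adjusted p of up to 0.023 and 0.031 in the others by edgeR's quasi-likelihood test. Trp53 lost its call without Sulindac 1 or Sulindac 3 (adjusted p = 0.012 and 0.014), and Cdkn2b without Sulindac 3 (adjusted p = 0.010, just past the threshold). Every such fit kept the direction of these 4 genes.

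Some cell cycle genes were lower. Of the 18 cyclins, CDKs and pocket proteins, E2f2 (-1.15), Cdk4 (-0.86) and Ccnb2 (-0.84) were lower with sulindac and Ccnd3, a D-type cyclin, was higher (0.57). Of the 15 proliferation genes, Mcm2 (-0.86) and Mcm3 (-0.79), subunits of the replicative helicase, were lower, and the list median was -0.46 against -0.01 over all genes. That count was 0 to 8 with 1 sample left out. Among these fits E2f2 passed only without Adenoma 3, Ccnd3 without either Adenoma 3 or Sulindac 3, and Mcm3 without either Adenoma 3 or Sulindac 2. Mcm2 lost its call without Adenoma 2, Sulindac 1 or Sulindac 3, and Cdk4 without Sulindac 1 or Sulindac 3. H19 had 99 to 663 reads in Adenoma and 2 to 9 with sulindac (log2 fold change -6.09, or -6.75 without Sulindac 1), and of the 6 neighbors of Cdkn1c tested only Kcnq1, a potassium channel (0.84), was called besides. Vim, at 105 to 261 CPM in Adenoma and 2.60 to 8.52 CPM with sulindac, moved in the same samples, and its part in the results was not tested.

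Sulindac organoids were also compared with MIN organoids, to show how the treated cultures differed from Apc-mutated normal epithelium. Of the 10 genes, 5 were higher than in MIN (Cdkn2a, Mdm2, Ccng1, Trp53inp1, Csnk1a1), 2 were lower (Cdkn1c, Trp53) and 3 did not pass. Here 23% of the 13551 genes tested were higher and 26.8% lower. Both sets of samples were already used above, so that this comparison adds no new samples. The 7 called genes did not overlap between the groups, as was true of 100% of the genes called and of 69% of those tested.

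Mdm2 was 2.12-fold, Ccng1 2.88-fold and Trp53inp1 5.32-fold higher than in MIN, with log2 fold changes of 1.08, 1.52 and 2.41, and all 3 passed in each of the 6 fits without a sample. Trp53 was 1.49-fold lower (log2 fold change -0.58 ± 0.13, adjusted p = 0.0036 by edgeR's quasi-likelihood test), so that the gene for p53 and 3 of its targets stood on opposite sides of MIN. Cdkn1a was 1.29-fold higher with an interval from 0.00 to 0.74 on the log2 scale and an adjusted p of 0.073 (edgeR's quasi-likelihood test). It rested on MIN 3, at 271 CPM as high as the treated samples, and without MIN 3 the change was 0.60 (adjusted p = 0.00019 by edgeR's quasi-likelihood test). The 34 other p53 targets gave 20 higher and 1 lower, with a median of 0.75 against -0.03 over all genes. Eda2r (3.82), Plk2 (3.13), Gdf15, a stress cytokine (2.92), and Phlda3 (2.28) led them. Gdf15 gave 3.89 without MIN 3 and lost its call without MIN 2, Sulindac 2 or Sulindac 3. Sesn1 was the lower one (-1.16). Of the 17 regulators of p53 tested, 4 were lower: the kinases Hipk2 (-1.39), Chek1 (-1.07) and Atm (-0.39), and Usp7, which removes ubiquitin from p53 and Mdm2 (-0.40).

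Cdkn2a was above MIN with 21 to 28 reads against 4 to 13, a ratio of 3.84 with a counting interval of 2.39 to 6.37 (log2 fold change 1.94 ± 0.42, adjusted p = 0.0036 by edgeR's quasi-likelihood test). Cdkn1c had 1 to 4 reads against 72 to 106, a ratio of 27.2-fold lower with a counting interval of 13.6 to 63.6. Cdkn2b lay within the range of MIN, with an interval of its log2 fold change from -0.41 to 0.27, and so did Cdkn1b (-0.39 to 0.16). Csnk1a1 was 1.57-fold higher (0.65 ± 0.09, adjusted p = 0.00027) and passed without any 1 of the 6 samples. The calls of Cdkn2a and Trp53 were less firm. That of Cdkn2a was lost without MIN 1, Sulindac 1 or Sulindac 2 (adjusted p = 0.013 to 0.014 in edgeR's quasi-likelihood test), and that of Trp53 without MIN 1, MIN 2, Sulindac 1 or Sulindac 3 (adjusted p = 0.011 to 0.018).

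Around these genes, 14 of the 15 proliferation genes were lower than in MIN, with a median of -0.82, led by Mcm5 (-1.14) and Mki67 (-1.06), and 11 of the 18 cyclins, CDKs and pocket proteins were lower against 2 higher, E2f2 having the largest log2 fold change of that list (-3.99). Among the other CDK inhibitors Cdkn2d was higher (0.61). Bmi1 (0.76), Cbx2 (0.62), Rnf2 (0.60) and Ring1 (0.41) were the Polycomb genes higher by edgeR's quasi-likelihood test, with none lower (2 lower at an unadjusted p under 0.05, and 5 higher and 1 lower by DESeq2). Skp2 was lower (-1.64) and Foxo4 higher (0.39). Csnk1e (1.10) and Csnk1g1 (0.30) were higher among the 5 casein kinase 1 genes, and Axin2 (1.34), Btrc (1.10), Fbxw11 (0.36) and Apc (0.36) among the 9 genes of the destruction complex. Of the 6 imprinted neighbors tested, Cd81 (0.85) and Kcnq1 (0.43) were higher, and Igf2 was lower with 0 to 2 reads against 43 to 70. The smaller of these changes depended on the samples used. Without MIN 1 or Sulindac 1 the calls of Atm, Ring1, Foxo4, Kcnq1, Csnk1g1, Apc and Fbxw11 were lost, as were all of them but Kcnq1 without MIN 2. Without Sulindac 2 those of Atm, Foxo4 and Kcnq1 were lost, and without Sulindac 3 those of Ring1, Foxo4, Kcnq1, Csnk1g1, Apc and Usp7. The counts of proliferation and cyclin genes depended on the samples too. Without Sulindac 1 or Sulindac 3 the proliferation genes Mcm4, Mcm7, Cdc20 and Rrm2 lost their calls, as did Ccne2, Cdk1, Cdk2, Cdk4 and E2f3. Mcm4, Cdc20, Ccne2, Cdk1 and Cdk4 also lost theirs without MIN 1 or MIN 2, and Cdk2 and E2f3 without MIN 2.

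**Figure D5:**
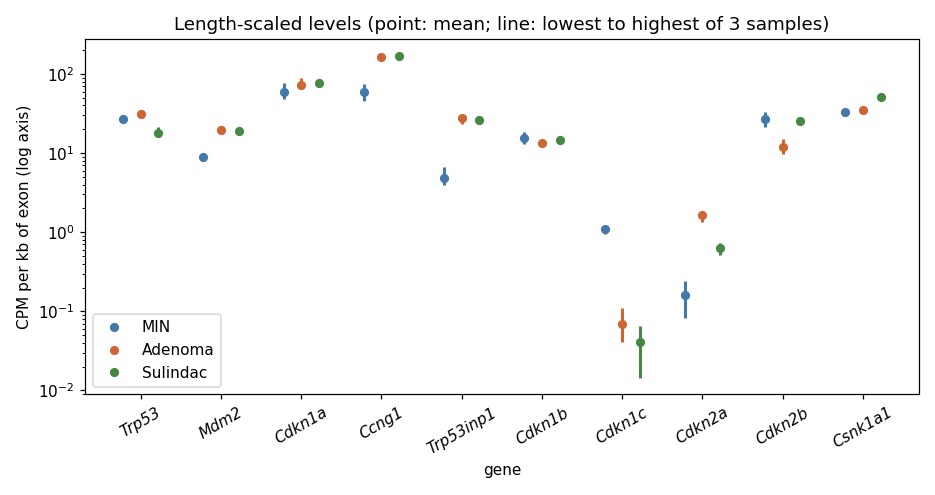
CPM per kilobase of annotated exon (log axis) for the 10 genes in the 3 groups. Points are means and lines run from the lowest to the highest of 3 samples. Ccng1 and Cdkn1a stand at the top, and Cdkn2a and Cdkn1c lie below the other 8 genes in every group.

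Levels of different genes were compared as CPM per kilobase of exon, with lengths from GENCODE M21. In MIN, Cdkn1a (48.4 to 76.4 over the 3 samples) and Ccng1 (45.3 to 74.7) led and did not differ beyond their spread. Csnk1a1 followed (31.1 to 35.5), then Trp53 (23.8 to 30.2) and Cdkn2b (21.6 to 32.8), which overlapped, and then Cdkn1b, Mdm2 and Trp53inp1 (3.91 to 6.71). Cdkn1c, at 0.955 to 1.20, and Cdkn2a, at 0.0832 to 0.239, were the lowest.

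In Adenoma, Ccng1 (163 to 172) stood above Cdkn1a (65.2 to 88.7). Csnk1a1, Trp53 (29.96 to 32.8) and Trp53inp1 (23.7 to 30.6) followed with overlap between neighbors, then Mdm2 (19.5 to 19.9), and then Cdkn1b and Cdkn2b, which overlapped. The 2 lowest genes changed places, with Cdkn2a at 1.37 to 1.86 and Cdkn1c at 0.0413 to 0.110.

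With sulindac the top was as in Adenoma, Ccng1 at 165 to 174 and Cdkn1a at 75.2 to 78.3. Csnk1a1 (50.9 to 52.6) stood apart from the next genes, Trp53inp1 and Cdkn2b (24.5 to 27.6), which overlapped each other. Trp53, at 16.1 to 21.5, was now in the range of Mdm2, at 18.1 to 19.6, and Cdkn1b came next. RNA of Cdkn2a and Cdkn1c was thus low relative to Cdkn1a in all 9 samples.

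Within groups the samples were not alike. MIN 3 had the highest value of its group for 7 of the 10 genes and MIN 1 the lowest for 6. The coefficient of variation in MIN was 25.3% for Cdkn1a, 25.0% for Ccng1 and 32.5% for Trp53inp1, against 2.09%, 2.64% and 9.61% in Sulindac. For Mdm2 it was 5.90% in MIN and 1.20% in Adenoma.

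The genes whose pattern over the 9 samples was most like that of 3 of these genes were named as a description, since the samples form 3 groups and any gene with the same order of groups will score high. By Pearson's r of log2(CPM + 0.5) over 12186 genes, Slc50a1 (0.983), 2410004N09Rik (0.974) and 2810008D09Rik (0.965) were nearest to Cdkn1a. Anxa6 (0.992), Brd7 (0.991) and Igfbp4 (0.990) were nearest to Cdkn2a, and Rab7 (0.991), Ywhag (0.991) and Fgf1 (0.989) to Csnk1a1.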

How the data were processed

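RNA-seq of 9 mouse organoid samples was analysed (3 groups of 3 replicates). The authors deposited raw read counts per gene symbol, made per the submitters' processing notes with Bowtie2 2.2.4 and RSEM on mm9; the annotation and strand setting are not given in the sources used here. Of the 3 columns of MIN 1 the last, the sum of 2 runs that differed by little more than sampling noise (chi-square per gene 1.19), was used as 1 sample. In 27 rows the symbol had become a date, and these were kept unnamed. Replicates are biological per the study's text, but whether they are separate mice is not stated, so p-values measure the spread between these samples.

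Genes were filtered with filterByExpr, normalised by TMM and tested per pair of groups with edgeR 4.0.16 under R 4.3.3 by its quasi-likelihood F test with robust dispersions (glmQLFit, glmQLFTest), with Benjamini-Hochberg adjustment over all genes and a false discovery rate of 1%. The standard error is the log2 fold change divided by the root of F. CPM used TMM factors of all 9 samples. The script was tested on simulated data. In Adenoma against MIN, samples with the same number deviated together (correlations 0.12 to 0.20, against -0.16 to 0.085 for other numbers). Whether the numbers mark true pairs is not given in the sources used here. The replicate block changed no call of the 10 genes there. Alternatives were RLE factors, library size alone, other filters, a single fit, the replicate block, DESeq2 1.42.0, a 5% rate, the first run of MIN 1 and leaving out each sample. Leaving out replicate 3 of both groups, the counts over the p53 target and proliferation lists, and leaving out each sample for all list genes, were added after the data were seen. Counting intervals (95%, exact) and the floor of 3 counts cover counting error only.

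The 10 genes and all lists were chosen with earlier results of these data known. Named from each list were up to 4 genes per comparison with the largest change that passed without overlap between groups, all genes of lists of 5 or fewer, and the 3 genes most like Cdkn1a, Cdkn2a and Csnk1a1. Dram1, Ptprc, Trp63, Trp73, Mdm4, Sesn1, Sfn, Gadd45a in the first comparison, Ccnd3 and the members of other counts of 5 or fewer were named after their values were seen. Promoter sequences are RefSeq's for GRCm38.p6, which is not the build of the counts; no coordinates were taken from mm9. Cdkn1a and Trp53 share 8.49% and 3.95% of their 50-base stretches with other annotated genes, and Cdkn1c 24.9%.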

Additional observations from a re-analysis of the deposited data

How the results depend on the processing

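Of 403 recomputed log2 fold changes of the 10 genes, 372 kept direction and side of the threshold, 22 lost a call, 2 gained one and 7 small uncalled ones changed sign. In Adenoma over MIN no call was lost in any fit that tested the gene. A minimum of 10 counts in every sample removed Cdkn1c, leaving 1 lower gene in both comparisons with MIN, and Cdkn2a. In Sulindac over Adenoma, library size alone left 1 of the 10 genes higher, 603 genes higher and 1983 lower over all, and 2 p53 targets higher, and turned Cdkn1a to -0.09, Cdkn1b to -0.0466 and Ccng1 to -0.12. There same-number correlations were -0.10 to 0.25, against -0.37 to 0.15 for other numbers. In Sulindac over MIN they were -0.04 to 0.43, against -0.36 to 0.12. These ranges overlap, so they do not settle whether the numbers pair the samples. The fits that follow are again of Sulindac over Adenoma. With the replicate block 1 of the 10 genes was higher, Csnk1a1 giving 0.57 with an adjusted p of 0.012 (edgeR's quasi-likelihood test), and the block changed no other call of the 10 genes. DESeq2 called 1778 genes and 8 p53 targets higher, and a 5% rate 2034 genes higher, 2374 lower and 9 p53 targets higher. With 1 sample left out, 0 to 2 of the 10 genes were higher and 0 to 2 lower, 423 to 1403 genes were higher and 386 to 1488 lower, and 1 to 4 p53 targets were higher; Cdkn1a ranged from -0.000459 to 0.216 and Mdm2 from -0.0687 to 0.0154. The fewest calls, 0 of the 10 genes in either direction, came without Sulindac 3. In Sulindac over MIN these fits left 1 to 2 of the 10 genes lower, and Cdkn1b ranged from -0.232 to 0.0229 and Cdkn2b from -0.212 to 0.0944, positive without MIN 3. The proliferation genes called lower in Sulindac over Adenoma ranged from 2 to 11 over the other settings, and in Adenoma over MIN from 0 to 8. The p53 targets lower in Adenoma over MIN numbered 1 with no filter and 1 to 3 with 1 sample left out, against 3. The cause of these shifts was not tested. Depth limits Cdkn1c and Cdkn2a, whose groups reach 1 to 13 reads.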

Other observations

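Genes tied to senescence and its secreted factors were read from a list of 30, of which 19 were tested in Adenoma over MIN. Of these 8 were higher (42.1%) and 3 lower (15.8%), against 18.5% and 20.1% of all genes tested, and the median log2 fold change was 0.21. Il6, Il1b and Mmp3 had almost no reads in any group. Timp2, an inhibitor of metalloproteinases, had 3.00 to 3.65 CPM in MIN against 152 to 195 CPM in Adenoma, with 126 to 143 CPM in Sulindac. Timp1 (3.65) and Plau, a urokinase (3.55), were also higher in Adenoma on the log2 scale, from mean levels below 0.2 CPM in MIN. Ereg, an EGF family ligand, had 188 to 397 reads in MIN, 0 in each Adenoma sample and at most 1 with sulindac.

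In Sulindac over Adenoma 3 of 18 tested genes of that list were higher (16.7%) and 4 lower (22.2%), against 8.32% and 9.1% of all genes tested. Areg, another EGF family ligand, was at 10.5 to 18.4 CPM in Adenoma and 92.1 to 164 CPM with sulindac (log2 fold change 3.14), and the urokinase receptor Plaur was higher (1.86). Igfbp5 (-3.44) and Cxcl1 (-2.17), both at low levels, were lower; Cxcl1 lost its call without any 1 of the 6 samples, and Igfbp5 without Adenoma 2 or any 1 Sulindac sample (-4.20 without Sulindac 2). Lmnb1, a lamin whose loss is 1 of several marks of senescent cells, was at 101 to 129 CPM in Adenoma and 47.0 to 60.1 CPM with sulindac (log2 fold change -1.16), and was named after its values were seen. Other genes did not move that way. Glb1 of the same list overlapped, at 92.0 to 112 CPM in Adenoma and 80.9 to 106 with sulindac, and Cdkn2a, described above, was lower with sulindac. The list median was -0.14, and senescence itself was not tested. In Sulindac over MIN 7 of 17 genes tested were higher (41.2%) and 5 were lower (29.4%), against 23% and 26.8% of all genes tested.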
